A study of Mus musculus with 6 samples.

Results

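Neurofilament genes, stathmin genes and Gap43 encode proteins of the axon and its growing tip. Their transcripts were followed in 6 RNA sequencing libraries from mouse brain cells, 3 untreated and 3 exposed to fibrinogen, the clotting protein that enters the brain when its vessels leak. The 9 genes were taken by exact name from a table of 34250 rows: the neurofilament genes Nefl, Nefm, Nefh and Ina, the stathmin genes Stmn1, Stmn2, Stmn3 and Stmn4, and Gap43. The selection rule itself used names only, although the gene group was chosen with earlier results of these data known. All 9 passed the filter on low values described below.

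All 6 libraries came from wild-type C57BL/6 mouse brain and carry the label of oligodendrocyte progenitors (OPCs), which give rise to the myelin-forming oligodendrocytes. In the study's methods, OPC cultures were grown from the cortex of newborn pups of this strain. The labels name the groups control and fibrinogen. The methods describe cultures given vehicle or fibrinogen at 2.5 mg/mL, the column names give 2.5 mg, and no time of exposure is stated for these libraries in the sources used here. Each group had 3 libraries. The columns number the libraries as mice and the methods speak in general of independent repeats, but no source ties each library to its own culture. The p-values below therefore measure library-to-library spread, part of which may be technical. The comparison asks which transcripts differ when these cells meet fibrinogen.

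Neurofilaments are the intermediate filaments of neurons. The light subunit Nefl is needed to build them, Nefm and Nefh carry long phosphorylated tails that help to set axon width, and Ina (alpha-internexin) is a further subunit of central neurons. Stathmins bind tubulin dimers and favour the shrinking of microtubules until kinases phosphorylate them. Stmn1 is cytosolic and made by many cell types, while Stmn2 (SCG10), Stmn3 (SCLIP) and Stmn4 (RB3) are neural and are held on membranes by a lipid anchor. Gap43 is a membrane-bound protein of growth cones and a substrate of protein kinase C. Apart from Stmn1 they are known mainly from neurons, where Stmn2 and Gap43 mark growing axons and neurofilaments mark established ones.

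Of these genes, Stmn2 and Stmn4 were higher in the fibrinogen libraries and passed the test. Stmn2 went from 34.3 RPKM ± 0.518 (SD, n = 3) to 47.5 RPKM ± 5.30 and Stmn4 from 177.2 RPKM ± 8.02 to 227.0 RPKM ± 18.3. The neurofilament genes, Stmn3 and Gap43 did not pass the test. Of all tested genes 5.87% passed as higher. In 6 fits that each left out a library, Stmn2 passed in 2 and Stmn4 in 1. Stmn1, the most abundant of the group, lay close to the threshold, and its coding sequence differs from that of a pseudogene at only 1 base.

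How far the rows of the table can be told apart was settled first, from the sequences. RPKM here means reads normalised to the length of the gene's exons and to the reads assigned in the library. The transcripts of the 9 genes (GENCODE release M39) were searched for windows of 50 bases that occur in a transcript of another gene. No window of any of them occurred in another of the 9. The stathmin genes are relatives, and their most similar stretch is printed here because it shows how close they come. In these 60 coding bases, capitals mark the 41 positions that are the same in all 4 genes.
Stmn1: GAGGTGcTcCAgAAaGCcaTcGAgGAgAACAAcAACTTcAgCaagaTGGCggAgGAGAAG
Stmn2: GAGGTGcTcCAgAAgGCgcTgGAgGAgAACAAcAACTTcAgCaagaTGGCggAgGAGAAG
Stmn3: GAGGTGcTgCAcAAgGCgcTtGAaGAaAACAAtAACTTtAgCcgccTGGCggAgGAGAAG
Stmn4: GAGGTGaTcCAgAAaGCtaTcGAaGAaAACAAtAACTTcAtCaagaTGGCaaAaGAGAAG
The bases start at coding position 241 of Stmn1, 343 of Stmn2, 346 of Stmn3 and 373 of Stmn4, counted from 1 at the start codon. In this stretch Stmn1 shared 56 of 60 bases with Stmn2, Stmn3 shared 49 and Stmn4 shared 48. The longest identical coding run was 43 bases between Stmn1 and Stmn2, 21 between Stmn2 and Stmn3, and 16 to 18 in the other pairs.

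Stmn1 was the exception. Of its 1739 windows 369 (21.2%) occurred in transcripts of other genes, 351 of them in Gm11223, annotated as a transcribed processed pseudogene. Its 450 bases covered the whole Stmn1 coding sequence without a gap, and 446 of 447 coding bases (99.8%) were the same. The stretch around the only difference is printed below to show how little separates the genes, with the differing base in capitals at coding position 274.
Stmn1: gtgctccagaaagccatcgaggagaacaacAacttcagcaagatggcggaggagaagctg
Gm11223: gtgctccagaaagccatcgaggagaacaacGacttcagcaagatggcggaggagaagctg
In the table Gm11223 lies on chromosome 4 from 69925630 to 69926079 (GRCm38, minus strand), far from Stmn1 on the same chromosome. How reads that map to both places were assigned is not given in the sources used here.

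Some gene models also overlap in position. The Nefm row holds a distal exon of 2381 bases (chromosome 14, 68082590 to 68084970, GRCm38) that lies outside the RefSeq gene and over the start of Nefl on the opposite strand. Nefl and Nefm thus share 1108 exon bases, 32.8% of the Nefl row and 19.2% of the Nefm row. Ina shares 456 bases (14.1%) with Nt5c2 on the opposite strand, and Stmn1 shares 66 bases with Gm23634 on its own strand. The library kit keeps strand, but the strand setting of the counting is not stated, so reads in these overlaps may belong to either gene.

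The libraries held between 36670999 and 44448983 reads assigned to genes. The recovered reads of a member ranged from 7306 (Stmn3) to 87280 (Nefm) per library, so that counting error at a member's lowest count was 0.384% to 1.17%. The spread between libraries of a group, as a coefficient of variation, was larger for every member, from 1.51% for Stmn2 in controls to 24.5% for Gap43 with fibrinogen. Together the 9 genes took 0.487% to 0.697% of all assigned reads. In a principal component analysis the groups separated along the first axis (51.4% of variance), and control replicate 3 stood apart on the second (22.6%).

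Before the changes, the labelled cell type was compared with marker levels. Neuron transcripts were far more abundant than OPC transcripts in every library. The 15 neuron genes summed to between 2174 and 2408 RPKM in controls and between 2113 and 2499 RPKM with fibrinogen. The 12 OPC genes summed to between 87.4 and 91.7 RPKM in controls and between 112 and 114 RPKM with fibrinogen. Snap25, a synaptic vesicle fusion gene of neurons, had 644 RPKM ± 81.1 (SD, n = 3) in controls. Pdgfra, the receptor that defines OPCs, had 6.85 RPKM ± 1.02, and the lineage factor Olig2 had 3.10 RPKM ± 0.782. The data thus go against a pure OPC population, and the genes described here were measured in libraries rich in neuronal RNA. In bulk libraries fewer cells of a type and less RNA per cell cannot be told apart.

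**Figure D1:**
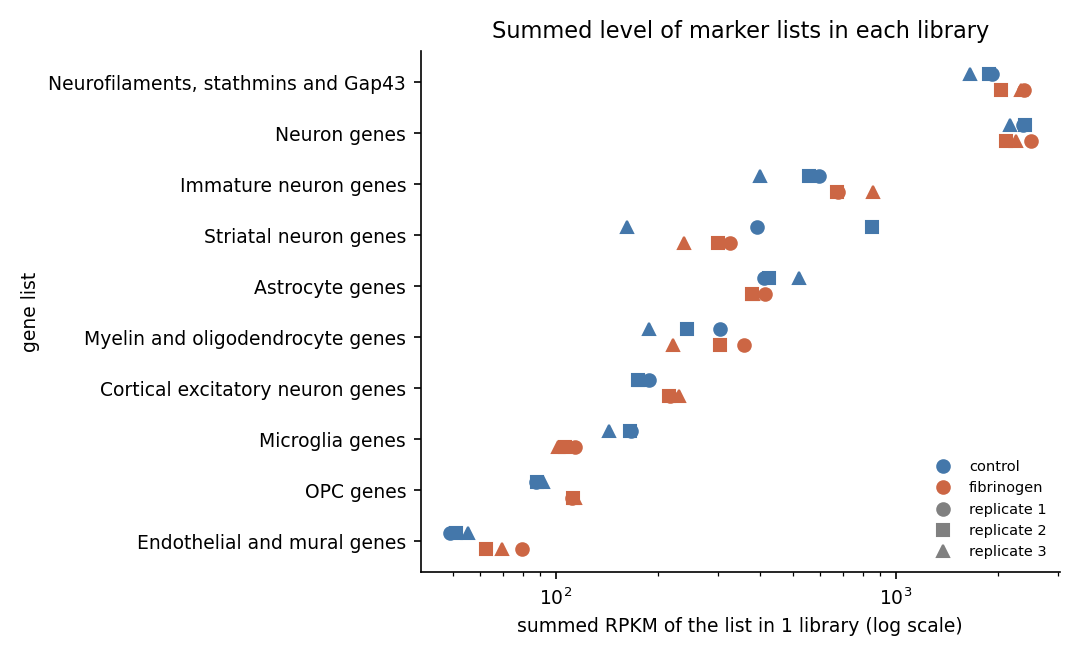
Summed RPKM of marker lists in each of the 6 libraries on a log axis, with controls in blue, fibrinogen in orange and a symbol for each replicate number. The neuron list lies between 2113 and 2499 RPKM in all libraries with the groups overlapping, while the OPC list stays between 87.4 and 114 RPKM.

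The 9 genes were abundant. By mean level over the 6 libraries, in RPKM, Stmn1 ranked 65th and Stmn2, the lowest member, 1255th of 14710 tested genes. In controls the mean levels fell in the order Stmn1, Nefm, Nefl, Gap43, Stmn4, Stmn3, Nefh, Ina and Stmn2. The ranges of single libraries overlapped between the neighbours Nefl and Gap43, Gap43 and Stmn4, and Stmn4 and Stmn3, and were apart between all other neighbours. With fibrinogen Gap43 (313 RPKM) stood above Nefl (300.4 RPKM), but their ranges overlapped there as well. RPKM divides by the length of the model, and for Stmn2 an exon version of 3201 bases makes up 57.1% of the 5602 bases counted, where a shorter version of the same exon has 173. In reads, Stmn2 (7452 to 11962) was close to Stmn3 (7306 to 9924), whose model has 1136 bases.

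**Figure D2:**
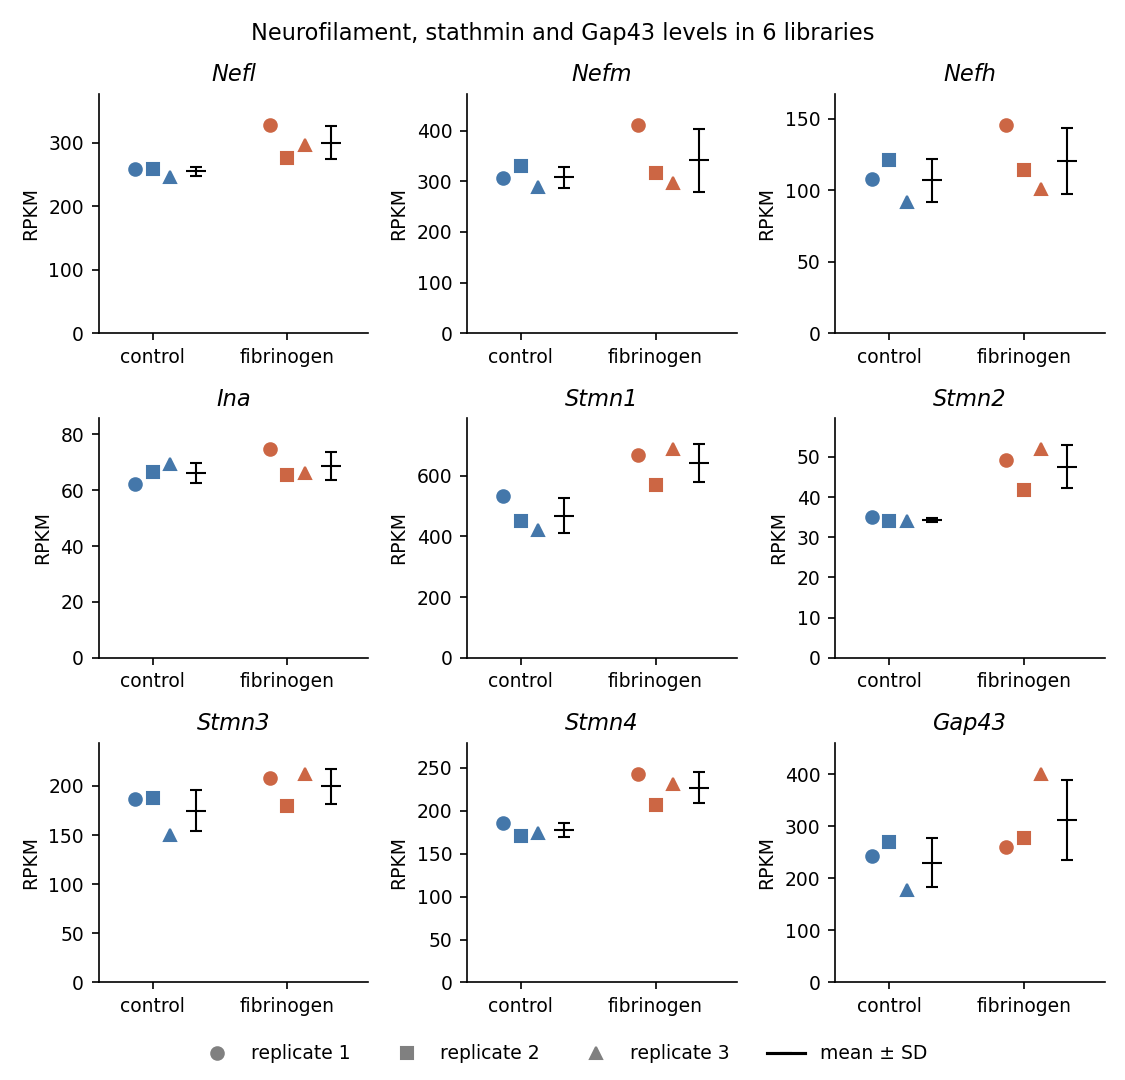
RPKM of each of the 9 genes in 3 control (blue) and 3 fibrinogen (orange) libraries, 1 panel a gene with an axis from 0, a symbol for each replicate number, and the mean with its SD in black. For Nefl, Stmn1, Stmn2 and Stmn4 every fibrinogen library lies above every control, and for the other 5 genes the groups overlap.

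Changes are given as log2 differences, fibrinogen minus control, of RPKM + 1. They were tested with limma across the 14710 genes that reached 1 RPKM in at least 3 libraries, with Benjamini-Hochberg adjustment over all of them, and a gene was called at an adjusted p under 0.05. Of the 9 genes 2 were called higher and 0 lower. Over all tested genes 5.87% were called higher and 5.62% lower, 11.5% in all. In 4 of the 9 every fibrinogen library was above every control, and in 0 below. The groups were apart in 35.1% of all tested genes, in 17.4% with fibrinogen higher. The median log2 change was 0.23 over the 9 genes and -0.01 over all tested genes. With 3 libraries a side, the smallest p of an exact permutation test is 0.1, so none was run.

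Stmn2 (chromosome 3, 8509360 to 8561606, GRCm38, plus strand) encodes a neural stathmin that human motor neurons need for axon regrowth and lose in amyotrophic lateral sclerosis. It had 34.9, 34.1 and 34.0 RPKM in control replicates 1 to 3 and 49.2, 41.6 and 51.8 RPKM in fibrinogen replicates 1 to 3. The controls were nearly equal, the groups did not overlap, and fibrinogen replicate 2 was the lowest of its group. The log2 change was 0.45 ± 0.09 (SE) with a 95% interval of 0.23 to 0.67 (limma adjusted p = 0.0281). The call was lost without control replicate 1, control replicate 2, fibrinogen replicate 1 or fibrinogen replicate 3 (limma adjusted p of 0.0946, 0.0849, 0.0988 and 0.0845), with log2 changes between 0.39 and 0.46.

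Stmn4 (chromosome 14, 66344296 to 66361680, plus strand) encodes the neural stathmin RB3. It had 186.3, 171.0 and 174.4 RPKM in controls and 242.9, 207.0 and 231.1 RPKM with fibrinogen. All fibrinogen libraries stood above all controls, again with replicate 2 the lowest of the treated group. This was a log2 change of 0.35 ± 0.09 (SE, 95% interval 0.14 to 0.56, limma adjusted p = 0.0471), just inside the threshold. Of the 6 fits that left out a library, the call held only without fibrinogen replicate 2 (0.0492). In the other 5 the limma adjusted p was 0.117 without control replicate 1, 0.141 without control replicate 2, 0.0654 without control replicate 3, 0.147 without fibrinogen replicate 1 and 0.127 without fibrinogen replicate 3.

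Stmn1 (chromosome 4, 134468320 to 134473843, plus strand), the founding member of the family, had 532.6, 450.9 and 422.1 RPKM in controls. With fibrinogen it had 667.9, 571.0 and 686.7 RPKM. The groups did not overlap, and the spread within each was wide beside that of Stmn2. The log2 change was 0.46 ± 0.12 (SE, 95% interval 0.17 to 0.75), as large as that of Stmn2, with a limma adjusted p of 0.0575 that missed the threshold. It was called in 6 of 20 alternative fits.

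The Gm11223 row moved the same way as Stmn1. It had 534.4, 488.2 and 530.0 RPKM in controls and 832.6, 717.9 and 753.8 RPKM with fibrinogen, at or above the Stmn1 level in each library. Its log2 change was 0.57 ± 0.10 (SE, limma adjusted p = 0.0151), and it was called higher. Gm11223 held 19.0% to 22.7% of the reads assigned to either row, with 19.0%, 20.2% and 22.7% in controls and 22.6%, 22.7% and 20.4% with fibrinogen. That share overlapped between the groups. With the reads of both rows added and divided by the Stmn1 length, the level was 589.7 RPKM ± 59.7 (SD, n = 3) in controls and 822 RPKM ± 71.6 with fibrinogen. The log2 change of the sum was 0.48 ± 0.11 (SE, limma adjusted p = 0.0403), so that the choice of adding them put Stmn1 past the threshold. This sum was formed after the data had been seen. If reads that map to both places were counted in both rows, the sum and the shares hold them more than once. The rule for such reads is not stated, so this was not tested.

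**Figure D3:**
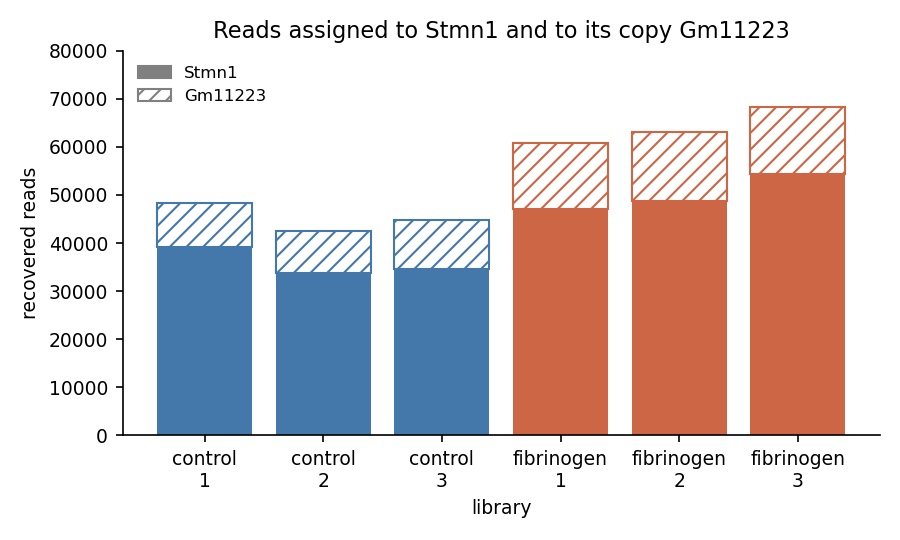
Recovered reads assigned to Stmn1 (filled) and to Gm11223 (hatched) in each library, controls in blue and fibrinogen in orange. Gm11223 holds 19.0% to 22.7% of each bar, and the summed bars, at 42425 to 48343 reads in controls and 60814 to 68329 reads with fibrinogen, do not overlap. The bars are not scaled to library size, and any read counted in both rows appears in both parts of a bar.

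Stmn3 (chromosome 2, 181306459 to 181314500, minus strand), a neural stathmin close to Stmn2, had 186.4, 187.9 and 150.5 RPKM in controls and 207.9, 179.4 and 212.1 RPKM with fibrinogen. Fibrinogen replicate 2 lay below 2 of the controls, so the groups overlapped. Its log2 change was 0.19 ± 0.12 (SE, 95% interval -0.08 to 0.47, limma adjusted p = 0.319). The interval contains 0 and also the change measured for Stmn2, and the difference between these genes was not tested.

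As a family the stathmins summed to 855 RPKM ± 80.2 (SD, n = 3) in controls and 1116 RPKM ± 102 with fibrinogen. Stmn1 made up 54.7% ± 1.71 of that sum in controls and 57.5% ± 0.539 with fibrinogen. Stmn3 made up 20.4% ± 1.59 and 17.9% ± 0.0884. Neither the Stmn1 nor the Stmn3 share overlapped between the groups. Shares of a sum depend on each other, and the mean RPKM of Stmn3 itself was 174.9 in controls and 199.8 with fibrinogen. The shares of Stmn2 (4.04% and 4.25%) and Stmn4 (20.8% and 20.4%) overlapped.

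Nefl (chromosome 14, 68083863 to 68089095, plus strand) had 259.5, 258.7 and 246.9 RPKM in controls and 328.4, 276.6 and 296.2 RPKM with fibrinogen. The groups did not overlap, with fibrinogen replicate 1 the highest library. Nefl differed by 0.23 ± 0.09 (SE, 95% interval 0.02 to 0.44) on the log2 scale, and the limma adjusted p of 0.139 missed the threshold. Nefl was called in 0 of 20 alternative fits, with adjusted p between 0.0613 and 0.343.

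Nefm (chromosome 14, 68082590 to 68124846, minus strand) had 307.0, 329.6 and 288.1 RPKM in controls and 411.6, 315.5 and 296.3 RPKM with fibrinogen. Only fibrinogen replicate 1 stood above the controls, and the groups overlapped. The log2 change was 0.13 ± 0.14 (SE, 95% interval -0.19 to 0.45, limma adjusted p = 0.559). Without fibrinogen replicate 1 it was -0.01 (limma adjusted p = 0.970).

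Nefh (chromosome 11, 4938754 to 4948064, minus strand) had 108.0, 121.2 and 91.6 RPKM in controls and 145.8, 114.1 and 101.1 RPKM with fibrinogen. The order of the libraries within each group was that of Nefm, and the groups overlapped. Nefh had a log2 change of 0.16 ± 0.16 (SE, 95% interval -0.21 to 0.53, limma adjusted p = 0.540), and 0.02 without fibrinogen replicate 1.

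Ina (chromosome 19, 47014698 to 47025327, plus strand) had 62.3, 66.7 and 69.4 RPKM in controls and 74.6, 65.6 and 66.3 RPKM with fibrinogen. Fibrinogen replicate 1 was again the highest library, and the remaining libraries of both groups were mixed. For Ina the log2 change was 0.06 ± 0.08 (SE, 95% interval -0.14 to 0.25, limma adjusted p = 0.692), and -0.0022 without fibrinogen replicate 1.

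The subunit mix of the neurofilament family was steady. Nefm made up 41.8% ± 0.556 (SD, n = 3) of the summed RPKM in controls and 40.9% ± 1.93 with fibrinogen, Nefl 34.7% ± 1.17 and 36.3% ± 2.43, Nefh 14.5% ± 1.23 and 14.4% ± 0.989, and Ina 9.004% ± 0.837 and 8.33% ± 0.499. Each difference in mean share was within the larger SD of the pair. The family summed to 736 RPKM ± 40.1 in controls and 831 RPKM ± 113 with fibrinogen.

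Gap43 (chromosome 16, 42248442 to 42340651, minus strand) had 243.5, 269.6 and 178.2 RPKM in controls and 260.2, 277.5 and 400.9 RPKM with fibrinogen. Control replicate 3 was the lowest library and fibrinogen replicate 3 the highest, while the other 4 lay close together and overlapped. The log2 change was 0.43 ± 0.21 (SE, 95% interval -0.06 to 0.93, limma adjusted p = 0.219), similar in size to that of Stmn2 with more than 2 times its standard error. It was 0.26 without control replicate 3 and 0.24 without fibrinogen replicate 3.

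**Figure D4:**
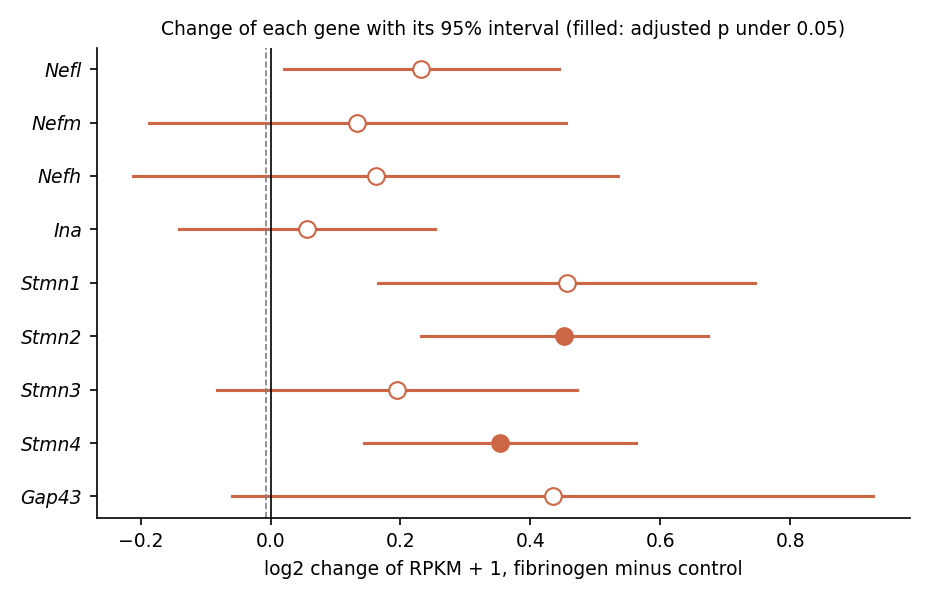
Log2 change of RPKM + 1, fibrinogen minus control, for each gene with its 95% interval, filled where the limma adjusted p was under 0.05, with the median of all tested genes (-0.01) as a dashed line. All 9 points are above 0, as were 48.8% of all tested genes, and without fibrinogen replicate 1 Nefm and Ina were below 0. The intervals of Nefl, Stmn1, Stmn2 and Stmn4 do not reach 0, and only Stmn2 and Stmn4 are filled.

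Across the 6 libraries the genes fell into patterns, given here as a description over points that share library, depth and group. Nefm and Nefh had a Pearson r of 0.96 on the log2 scale, and 0.95 once each group's mean was removed. Stmn1, Stmn2 and Stmn4 had r of 0.94 to 0.97 with each other, and 0.73 to 0.83 within groups. Nefl was closer to Stmn4 (0.95, within groups 0.84) than to Nefm (0.75, within groups 0.83). Gap43 went most with Stmn3 (0.84, within groups 0.74) and had r of 0.05 with Nefm and -0.19 with Ina.

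By the same measure, genes outside the group with the most similar pattern were found among rows with a mean of at least 5 RPKM. For Stmn2 they were Fgf13 (r of 0.998), which encodes a microtubule-binding and sodium channel-binding protein of axons, BC005624 (0.996) and Rab14 (0.994). For Stmn4 they were Tmbim6 (0.994), the linker histone gene H1f0 (0.992) and the mitochondrial assembly factor gene Ndufaf2 (0.992). Here and for the members below, the genes named are the highest of many rows. The r values rest on 6 libraries and include the group difference, so that high values can arise from the selection alone. Functions are given for some of these genes only, and whether they share a function with the members was not tested.

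For Stmn1 the closest were Fam32a (r of 0.998), Fam134b (0.996) and Lamtor1 (0.992), and for Stmn3 Faim (0.995), Manf (0.993) and Gnb1 (0.993). Nefl was followed by Dlg1 (0.992), Bnip3l (0.992) and Cisd1 (0.991). Nefm was followed by the adhesion gene Cadm2 (0.973), by Pvalb (0.964), the calcium buffer of fast-spiking neurons, and by Vps29 (0.961). For Nefh they were Stard10 (0.985), Ccni (0.977) and Syndig1 (0.972), and for Ina Peg13 (0.969), Rasgrp1 (0.963) and Rap1a (0.952). For Gap43 they were Moap1 (0.991), the kinase gene Fyn (0.982) and the synaptotagmin gene Syt4 (0.982).

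Other genes of the same machinery were counted over lists. Of 8 tested genes of other intermediate filaments 1 was called higher and 0 lower. This was Nes, the nestin gene of neural progenitors, which went from 6.60 RPKM ± 0.751 (SD, n = 3) to 11.0 RPKM ± 1.20, a log2 change of 0.66 (limma adjusted p = 0.0140). Of 18 motors, linkers and kinases of neurofilaments 0 were called in either direction. The most abundant were the kinesin heavy chain genes Kif5a, with a mean of 1168 RPKM in controls against 1263 RPKM (log2 change 0.11, limma adjusted p = 0.585), and Kif5c (0.04, limma adjusted p = 0.832), whose sign turned with quantile scaling.

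Of 29 tested microtubule-associated protein genes 3 were called higher and 0 lower. Tppp, which stabilises microtubules and is best known from oligodendrocytes, went from 72.5 RPKM ± 3.84 (SD, n = 3) to 110.2 RPKM ± 7.62, a log2 change of 0.60 (limma adjusted p = 0.00873). Clasp2, a protein of growing microtubule ends, rose by 0.45 (limma adjusted p = 0.0281), and Map6d1, a relative of the stable tubule only polypeptide gene Map6, by 0.58 (limma adjusted p = 0.0325). Of 11 tested stathmin kinase and related genes 0 were called. Pak1, a kinase that acts on Stmn1, had a control mean of 65.6 RPKM ± 3.85 against 77.9 RPKM ± 10.3 (log2 change 0.24, limma adjusted p = 0.191). Mapk10, the JNK gene most typical of neurons, had a log2 change of 0.06 (limma adjusted p = 0.730).

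Of 15 relatives and partners of Gap43, 2 were called higher and 0 lower. Marcks, another membrane-bound protein kinase C substrate, went from 16.0 RPKM ± 1.57 (SD, n = 3) to 23.5 RPKM ± 3.51, a log2 change of 0.52 (limma adjusted p = 0.0389). Gnao1, the G protein subunit gene of growth cones, rose by 0.37 (limma adjusted p = 0.0194). Of 15 growth cone and axon elongation genes 2 were called higher and 0 lower, the cell adhesion gene Ncam1 (log2 change 0.39, limma adjusted p = 0.0245) and Dpysl2, whose product binds tubulin (0.35, limma adjusted p = 0.0337). The shares of these lists called higher can be set against the 5.87% of all tested genes.

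Of 12 tested genes of axon injury and regeneration 2 were called higher and 2 lower. Nrn1, a neurite growth gene, went from 68.9 RPKM ± 11.7 (SD, n = 3) to 100.4 RPKM ± 10.4 (log2 change 0.55, limma adjusted p = 0.0493), and the transcription factor gene Klf7 rose by 0.36 (limma adjusted p = 0.0343). The stress gene Gadd45a fell by 0.80 on the log2 scale (limma adjusted p = 0.00479) and the acute-phase factor gene Cebpd fell by 1.23 (limma adjusted p = 0.0108). Cebpd passed the filter through the control libraries alone (0.246 to 0.434 RPKM with fibrinogen), and such a gene could hardly be called higher. Its fibrinogen values lie under the pseudocount of 1 RPKM, and its fall was larger with the smaller pseudocounts tried. Atf3, Sprr1a, Gal and Arg1 were under the filter on low values.

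Markers of several cell types moved beside the stathmins. Of 15 neuron genes 0 were called in either direction, and their median log2 change was 0.03. Scaling each library to the mean of these 15 genes, chosen after the data had been seen, left log2 changes of 0.45 for Stmn2 (limma adjusted p = 0.0197), 0.35 for Stmn4 (0.0305) and 0.45 for Stmn1 (0.0359), and 3 of the 9 genes were then called, beside 1119 of all 14710. This scaling takes the same amount from every gene of a library, so all log2 changes moved alike, by 0.0067. What part neuronal RNA has in the stathmin values was not tested by it. Genes of immature neurons summed to between 400 and 596 RPKM in controls and between 671 and 861 RPKM with fibrinogen, without overlap. Within that sum the tubulin gene Tuba1a went from a mean of 245 to 356 RPKM but was not called (limma adjusted p = 0.0838). The groups were apart in 5 genes with fibrinogen higher and in 1 lower, against 17.4% and 17.7% of all tested genes. Of the 12 tested 1 was called higher, the tubulin gene Tubb2b, with a log2 change of 1.69, and 1 lower, the factor gene Neurod2, with -0.43.

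The OPC list had 7 of 11 tested genes called higher and 0 lower, against 5.87% and 5.62% of all tested genes. Its sums were apart between the groups. Among the called genes, Nkx2-2 passed the filter through the fibrinogen libraries alone (0.675 to 0.739 RPKM in controls). C1ql1 was under 1 RPKM in control replicates 1 and 3. Such genes could hardly be called lower. Olig2 was called, from a mean of 3.10 to 6.19 RPKM (limma adjusted p = 0.0140). The 4 not called were Pdgfra (log2 change -0.11), Lhfpl3 (-0.08), Tnr (-0.29) and Ptprz1 (0.29). Against the same shares of all tested genes, the myelin list had 4 of 11 called higher and 0 lower. Its sums, 189 to 305 RPKM in controls and 221 to 358 RPKM with fibrinogen, overlapped. Ugt8a, among those called, also passed the filter through the fibrinogen libraries alone (0.865 to 0.988 RPKM in controls). Of 10 microglia genes 1 was called higher (Cx3cr1) and 4 lower (C1qa, C1qb, C1qc and Ctss). The list summed to 144 to 166 RPKM in controls and 101 to 114 RPKM with fibrinogen. Within that sum Ctss alone went from a mean of 74.8 to 37.2 RPKM. All fibrinogen libraries lay above all controls in 4 of these genes and below in 4, against 17.4% and 17.7% of all tested genes. Of 10 astrocyte genes 1 was higher and 2 lower, and of 8 endothelial and mural genes 3 were higher and 0 lower. Of 29 tested markers of neuron types 2 were called, both higher, against 5.87% of all tested genes called higher. They were 1 of 8 for cortical excitatory neurons (Neurod6), 0 of 8 for striatal neurons, 1 of 5 for cerebellar neurons (Car8), 0 of 7 for large projection and fast-spiking neurons and 0 of the 1 tested thalamic, midbrain and hindbrain gene. Striatal genes summed to between 162 and 855 RPKM in controls and between 239 and 326 RPKM with fibrinogen, by ratio the widest spread of these lists within controls. No gene of these lists was at 0 in all libraries. The part of such cell types in the stathmin values was not tested.

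**Figure D5:**
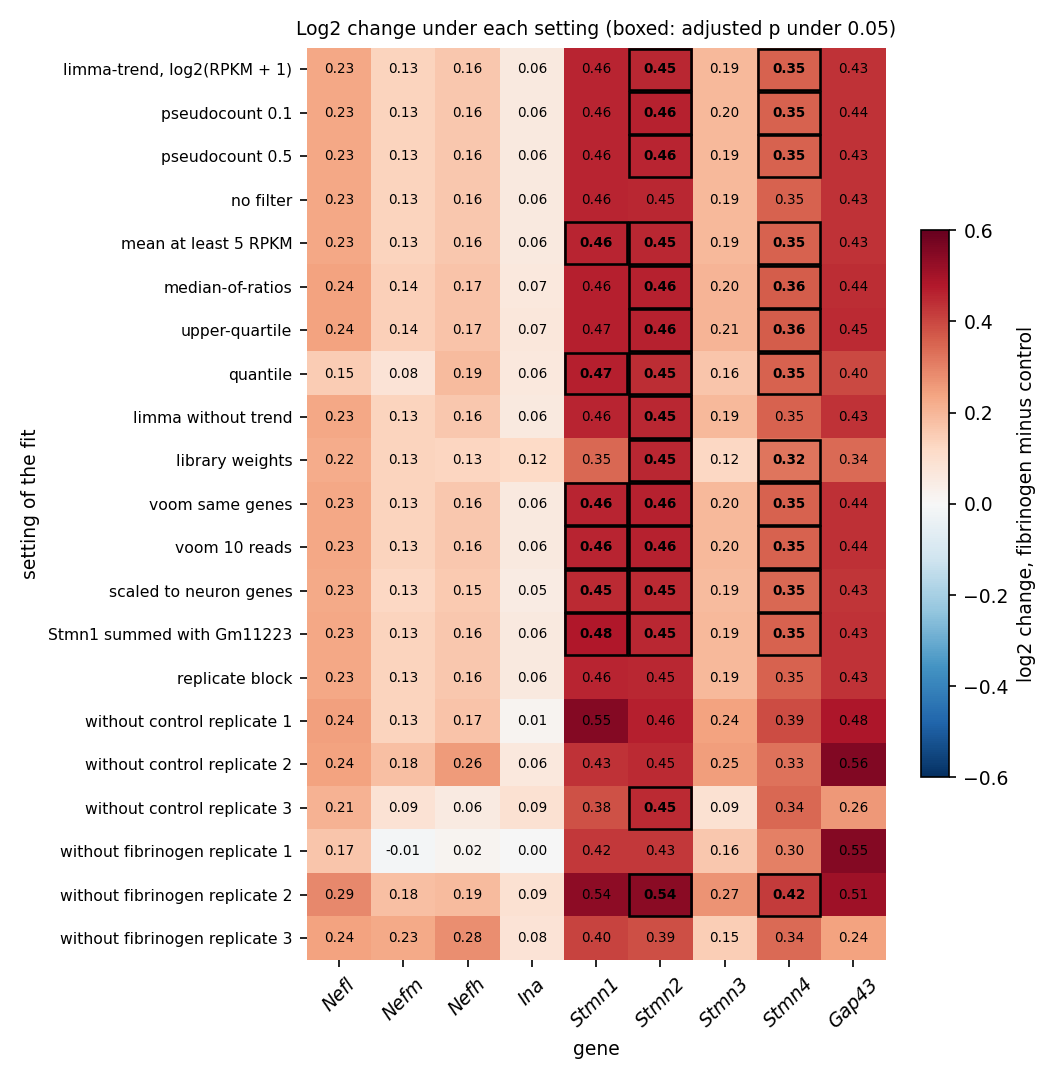
Log2 change, fibrinogen minus control, of each gene (columns) under the reported fit (top line) and 20 alternative fits (other lines), boxed where the adjusted p was under 0.05; the settings are pseudocounts, filters, scalings, variance models, tests on recovered reads (voom), the replicate number as a block and fits that leave out a library. Stmn2 is boxed in 14 and Stmn4 in 12 of the 20 alternatives, Stmn1 in 6, and the other 6 genes in none. The fit that adds Gm11223 to Stmn1 nearly repeats the reported fit for every gene but Stmn1.

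Over the settings tried, the stathmin genes differed in how often they were called. Stmn2 was called in 14 of 20 alternative fits, with log2 changes of 0.39 to 0.54 and adjusted p between 0.00747 and 0.0988. Stmn4 was called in 12, with log2 changes of 0.30 to 0.42 and adjusted p between 0.0216 and 0.147. Stmn1 was called in 6, with log2 changes of 0.35 to 0.55 and adjusted p between 0.0118 and 0.163. These calls of Stmn1 include the scaling to neuron genes and the sum with Gm11223, both added after the data had been seen. Stmn3, Gap43 and the neurofilament genes were called in 0, and the log2 change of Gap43 ranged from 0.24 to 0.56.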

How the data were processed

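Stranded mRNA libraries were sequenced by the authors. Per the labels, reads were processed by the authors with edgeR 3.12.1, featureCounts 1.5.1, STAR 2.7.6a and Trimmomatic 0.39 on the GRCm38 build, whereas the methods give a different STAR version and build. Gene ends within 10 bases of the RefSeq annotation of GRCm38.p6 were found for 49.8% of 25667 matched symbols, and coordinates follow the table. Neither the strand setting nor the rule for multi-mapped reads is stated in the sources used here.

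The values were deposited as RPKM, computed by the authors from reads over exons and gene length. Multiplied by length, 100% of values in each library were whole reads within 0.001 reads. Fits used limma 3.58.1 in R 4.3.3, two-sided and without covariates, on log2 values with a pseudocount of 1 RPKM and a trended prior. Limma-voom on the recovered reads was an alternative. Scaling to neuron genes and adding Gm11223 to Stmn1 were alternatives added after the data had been seen. The fits were tested on simulated data. In 26 rows the gene name had become a date, and none of these is named.

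The 9 genes and all lists were chosen with earlier results of these data known. All 9 genes are described. From each list of related genes up to 4 called genes are named by adjusted p, or the 2 most abundant where none was called. For likeness the 3 rows with the highest Pearson r over 6 libraries are named, leaving out predicted gene models. Gm11223 and the marker genes given with values were named after their values were seen. Sequences are from GENCODE M39 transcripts.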

Additional observations from a re-analysis of the deposited data

How the results depend on the processing

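Of 180 values of the 9 genes over 20 alternative fits, 158 kept their sign and side of the threshold, 14 lost the call, 6 gained it and 2 turned sign. Among the values kept are those of the fit that added Gm11223 to Stmn1, which for every gene but Stmn1 nearly repeats the reported fit. The lost calls were those of Stmn2 in 6 of its 20 fits and of Stmn4 in 8 of its 20. The other 7 genes had no call to lose. Over all genes 1689 were called, 863 higher and 826 lower. The count was 935 without the filter, 1052 with a mean of at least 5 RPKM, 4041 with library weights, 1119 after scaling to neuron genes and 320 at an adjusted p under 0.01. Of the 9 genes, 2 in the reported fit, 0 were called without the filter, 1 without the variance trend and 0 at an adjusted p under 0.01. Leaving out a library gave 466 to 2300 called genes and 0 to 2 of the 9. The 466 came without control replicate 1, 494 without fibrinogen replicate 1, 576 without fibrinogen replicate 3, 693 without control replicate 2, 948 without fibrinogen replicate 2 and 2300 without control replicate 3. Over these fits the log2 change ranged from -0.0095 to 0.23 for Nefm, from -0.0022 to 0.091 for Ina and from -0.049 to 0.12 for Mapk10, each below 0 without fibrinogen replicate 1 only. For Kif5c it ranged from -0.034 (without control replicate 3) to 0.11, with -0.016 without fibrinogen replicate 1, and was -0.049 with quantile scaling and -0.051 with library weights. The cause was not tested.

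With the replicate number as a block 600 genes were called, and 0 of the 9, with limma adjusted p of 0.0719 for Stmn2 and 0.101 for Stmn4. The deviations of same-numbered libraries correlated at 0.06, -0.24 and -0.07, and those of differently numbered libraries at -0.22 to 0.27. With 3 libraries a group these values cannot settle whether the numbers pair the samples. The block also costs degrees of freedom. Limma-voom on the same rows called 2045 genes, of which 1567 were among the 1689, and called Stmn1, Stmn2 and Stmn4. No scaling moved the median log2 change of all genes by over 0.1. Gap43 had a standard error of 0.21 on the log2 scale, while the counting error of its lowest library was 0.928%.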

Other observations

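Stmnd1, which encodes a protein with a stathmin domain, was outside the genes described and under the filter on low values. It had 0.959, 0.507 and 0.412 RPKM in control replicates 1 to 3 and 0.240, 0.132 and 0.321 RPKM in fibrinogen replicates 1 to 3. All fibrinogen libraries were below all controls, the opposite order to that of Stmn1, Stmn2 and Stmn4, at levels too low for the test used here.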
